A study of Mus musculus with 6 samples.

Results

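Of 3 stable mouse KP lines that carry an inducible hairpin RNA against Npm1, lines 4 and 5 were taken alone, and each was sequenced without and with doxycycline, which gave 4 of the 6 libraries of the study. The remaining pair came from line 3, in which Npm1 was lowest with doxycycline, and it is set beside the others as a description. Its difference from lines 4 and 5 was also tested, against the spread between those lines. Each line held 1 hairpin vector, pLKO.1-Tet on-shNpm1-3, -4 or -5, had been selected with 2 µg/ml puromycin, and was grown without doxycycline or with it at 100 ng/ml. All 6 libraries therefore carried a hairpin vector, and the drug was the only labelled difference within a line. The labels name the cells KP and describe them no further, give no time of treatment, and name no library that had the drug but no Npm1 hairpin, so an effect of the drug itself cannot be told apart from the knockdown. Each line had 1 library per condition, nothing in the labels says that separate cultures were sampled, and the sources used here give no dates or batches. The spread in every test below is that between 2 lines with different hairpins.

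Npm1 encodes nucleophosmin, an abundant chaperone of the granular part of the nucleolus that binds histones and ribosomal proteins and shuttles between nucleus and cytoplasm. It is known for its part in the late steps of ribosome assembly, in the duplication of centrosomes and in holding the tumour suppressor ARF in the nucleolus. Ribosomal proteins are the structural parts of the ribosome, and their mRNAs are among the most abundant of growing cells.

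Counts in genes ranged from 24391198 to 27341036 per library. Levels are given in CPM, counts scaled to a common library size, and 3 counts corresponded to 0.110 to 0.123 CPM. Another 43.7% to 47.7% of the reads were in no gene, with 31.4% to 37.8% of all reads aligned to more than 1 place, the most in the library of line 3 with doxycycline. The epithelial keratin Krt8 was between 3537 and 4289 CPM in the 4 libraries of lines 4 and 5. Cdh1 (E-cadherin) was between 330.4 and 448 CPM, while Epcam, also epithelial, was lower with doxycycline in line 4 and higher in line 5. The fibroblast gene Lum and the lung transcription factor Nkx2-1 had no count in any library, which allows up to 0.123 CPM. Of the other markers of these types, the fibroblast gene Dcn was at most 0.0770 CPM and the alveolar gene Sftpc at most 0.0392 CPM. Both stayed under the level of 3 counts in every library, while Pdgfra and Ager were present. The fibroblast gene Pdgfra was at 3.49 and 0.991 CPM without and with doxycycline in line 4. It was at 3.69 and 1.38 CPM in line 5 and at 3.08 and 5.77 CPM in line 3. The alveolar gene Ager was between 1.46 and 2.41 CPM.

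Npm1 (ENSMUSG00000057113, mm10 chromosome 11, 33152287 to 33163206, minus strand) had 1851 CPM without and 245 CPM with doxycycline in line 4, and at 1924 and 400 CPM in line 5. The remaining level was 13.2% in line 4 and 20.8% in line 5. The groups did not overlap, and of all genes tested 29.3% were likewise lower with the drug without overlap. Npm1 fell by 2.59 on the log2 scale (SE 0.17, edgeR quasi-likelihood test, adjusted p = 0.00598). In line 3 it was at 2002 CPM without and 67.8 CPM with the drug, so that 3.39% remained. The response of line 3 differed from that of lines 4 and 5 by -2.29 (SE 0.27) and did not pass the adjusted threshold of 0.05. Line 3 was set apart as the line in which Npm1 fell most, so this difference follows from that choice and is no separate evidence. Npm3, the other tested gene of the nucleoplasmin family, was at 69.4 and 84.9 CPM without and with doxycycline in line 4 and at 76.4 and 53.2 CPM in line 5, so the lines went opposite ways and it did not pass (edgeR adjusted p = 0.774).

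**Figure D1:**
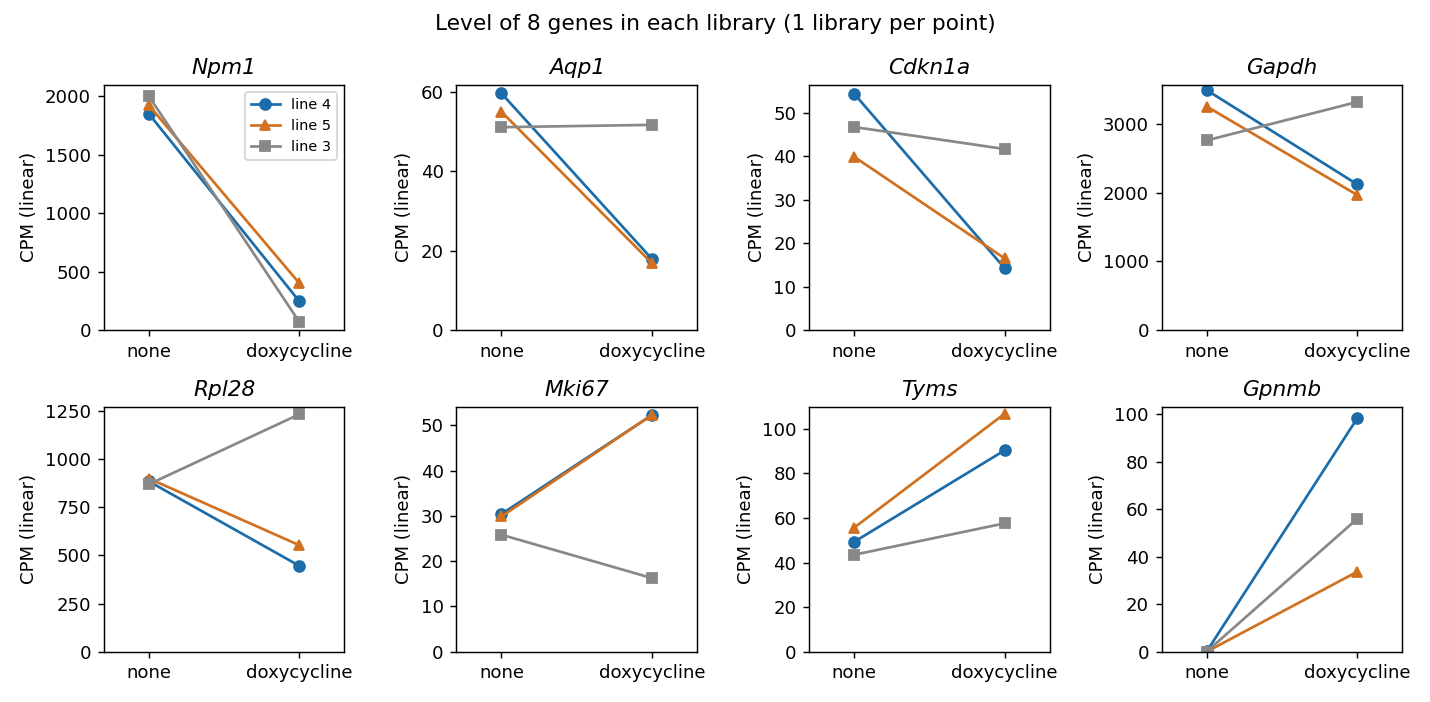
Level in CPM (linear axis, from 0) of 8 genes in each of the 6 libraries, 1 library per point, with a line joining the 2 libraries of a stable line. Npm1 is lower with doxycycline in all 3 lines, while Aqp1 goes from 59.6 to 17.9 CPM in line 4 and from 55.0 to 16.8 CPM in line 5 and lies at 51.1 and 51.7 CPM in line 3.

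Over 14748 genes tested, paired by line, 162 rose (1.10%) and 271 fell (1.84%), 433 together (2.94%), at a Benjamini-Hochberg adjusted p under 0.05 in the quasi-likelihood test of edgeR. A log2 CPM ratio of the same sign in both lines was common: 5087 genes (34.5%) were above 0 and 5254 (35.6%) below 0 in both, 70.1% in all, and the ratios of lines 4 and 5 correlated across these 14748 genes with r = 0.617, where genes are not independent. The test asks for a like response in both lines, so the shared direction of the called genes is no separate evidence. The response was the larger in line 4 for 113 of the 162 genes that rose and for 210 of the 271 that fell, against 8498 of all 14748. Median ratios were 1.28 in line 4 and 0.98 in line 5 for the genes that rose, and -1.14 and -0.94 for those that fell. Of the called genes, 101 of those that rose and 203 of those that fell had a mean of at least 5 CPM. Of these, line 4 had the larger response for 55 of the 101 and 155 of the 203, with medians of 0.77 in line 4 and 0.79 in line 5 for the rises and of -0.98 and -0.80 for the falls.

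The number of calls rested on choices and on single libraries. When only genes with a mean of at least 5 CPM were tested, 9 of the 304 calls still tested passed: Npm1 and Aqp1 fell, and Stab1, Adgre1, Gpnmb, Mmp12, Sirpa, Ctss and Gkn2 rose. Leaving out the library of line 4 or line 5 without doxycycline, which needs a fit with no term for the line, left 12 and 27 calls, and leaving out the library of line 4 or line 5 with doxycycline gave 3905 and 4779. Among 16 ways of fitting, Npm1 and Stab1, a scavenger receptor, passed in all 16, and Aqp1, Adgre1, Gkn2, Gpnmb, Mmp12 and Sirpa in 15. Adgre1, Gpnmb, Mmp12 and Sirpa are of the macrophage list, which the remaining fit left out, so they passed wherever they were tested. The other named genes below passed in fewer, and none changed direction. With library sizes taken as total counts instead of TMM scaling, which moved the median of all genes to 0.10, 562 genes rose and 319 fell, so that 63.8% of calls were higher against 37.4%.

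**Figure D2:**
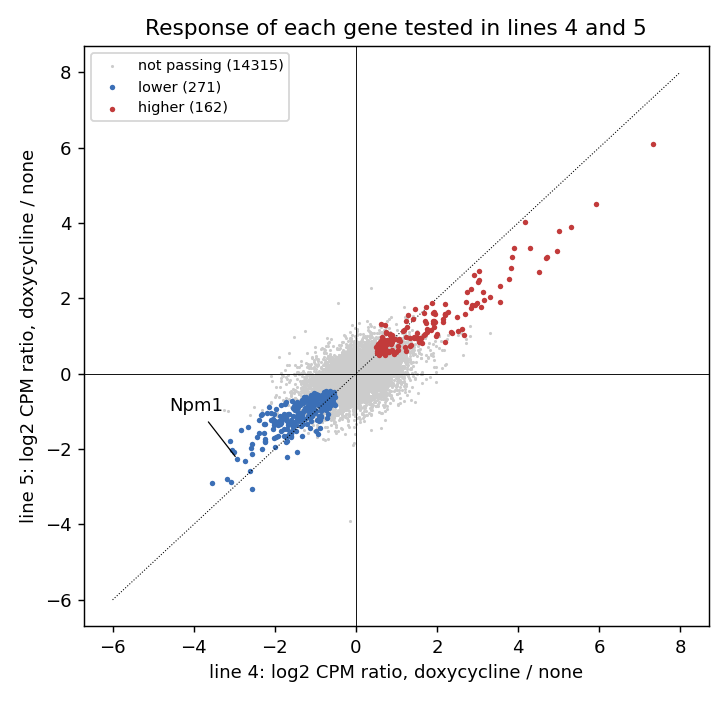
Log2 CPM ratio (doxycycline over none, 0.5 CPM added) of each tested gene in line 4 (horizontal) and line 5 (vertical), 1 point per gene, with the 162 genes that rose and the 271 that fell coloured and a dotted line of equal response. The called genes lie farther from 0 on the line 4 axis in 113 of the 162 rises and 210 of the 271 falls, and Npm1 lies at -2.92 in line 4 and -2.27 in line 5.

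Among called genes with a mean of at least 5 CPM, those that fell most besides Npm1 included channels, a Wnt ligand and secreted proteins. Aqp1, a water channel of the plasma membrane (chromosome 6, 55336432 to 55348555, plus strand), had almost the same values in both lines. It was at 59.6 and 17.9 CPM without and with doxycycline in line 4 and at 55.0 and 16.8 CPM in line 5, and fell by 1.72 (SE 0.12, edgeR adjusted p = 0.00725). Aqp3, a channel for water and glycerol, was at 41.2 and 4.36 CPM in line 4 and at 36.9 and 10.4 CPM in line 5. It fell by 2.49 (SE 0.32, edgeR adjusted p = 0.028). Wnt7a, a secreted ligand of the Wnt pathway, was at 13.8 and 1.49 CPM in line 4 and at 14.2 and 4.67 CPM in line 5, and fell by 2.32 (SE 0.38, edgeR adjusted p = 0.0405). For Aqp3 and Wnt7a the level with doxycycline was lower in line 4 than in line 5. Gfra1, the co-receptor of the growth factor GDNF, the secreted olfactomedin-domain protein Olfml2b and Nfe2l3, a relative of the antioxidant factor NRF2, fell as well, with log2 fold changes of -1.68, -1.75 and -1.94 and edgeR adjusted p of 0.0464, 0.0336 and 0.0421. Klk8, a secreted serine protease, and Cysrt1 fell by 2.26 and 1.71 (edgeR adjusted p = 0.0442 and 0.0447), and 24.8% of the exonic bases of Klk8 and 12% of those of Cysrt1 are shared with other annotated genes. Olfr1372-ps1, an annotated pseudogene, fell by 1.77 (edgeR adjusted p = 0.028).

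Genes of proliferation were higher in both lines. Of 34 tested cell cycle and mitosis genes 4 rose, of 36 genes of DNA replication 2 rose, and of 24 genes of nucleotide synthesis 3 rose, beside 1.10% of all genes, while the other 30, 34 and 21 did not pass. Median log2 fold changes were 0.34, 0.38 and 0.29, where that of all genes was 0.00, and 29 of 34, 31 of 36 and 18 of 24 members were above 0 in both lines, beside 34.5% of all genes. Mki67, the proliferation marker Ki-67 (chromosome 7, 135689784 to 135716361, minus strand), was at 30.4 and 52.3 CPM without and with doxycycline in line 4 and at 29.9 and 52.3 CPM in line 5. The groups were far apart against the gap between the lines, and Mki67 rose by 0.80 (SE 0.12, edgeR adjusted p = 0.032). Mad2l1, of the spindle checkpoint, went from 248 to 402 CPM in line 4 and from 294 to 510 CPM in line 5, and rose by 0.75 (SE 0.10, edgeR adjusted p = 0.028). The kinase of mitotic entry Cdk1 rose by 0.55 (SE 0.10, edgeR adjusted p = 0.0451). Ccne2, the cyclin E2 of entry into S phase, rose by 0.77 (edgeR adjusted p = 0.0405) and shares 17.4% of its exonic sequence with Ints8. Prim1, the catalytic subunit of DNA primase, was at 68.9 and 134 CPM in line 4 and at 72.8 and 137 CPM in line 5, and rose by 0.94 (SE 0.11, edgeR adjusted p = 0.0228). Rpa3, a subunit of the single-strand DNA binding complex, rose by 0.71 (edgeR adjusted p = 0.032).

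Enzymes of nucleotide synthesis were among those that rose. Tyms, thymidylate synthase, went from 49.3 to 90.3 CPM in line 4 and from 55.6 to 107 CPM in line 5, and rose by 0.91 (SE 0.11, edgeR adjusted p = 0.0247). Prps1, which makes the ribose precursor of nucleotides, rose by 0.62 (edgeR adjusted p = 0.0455). Offsets for the length and GC content of transcripts, fitted in each library, ended the calls of Rpa3, Ccne2 and Prps1, at log2 fold changes of 0.19, 0.45 and 0.45. The medians of the 3 lists stayed at 0.30, 0.35 and 0.29 with these offsets. In line 3 the medians were 0.00, 0.21 and 0.21, and Mki67 had 25.8 CPM without and 16.3 CPM with doxycycline. The response of Mki67 in line 3 differed from that of lines 4 and 5 by -1.46 (SE 0.22, unadjusted p = 0.000194, edgeR adjusted p = 0.116).

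Cdkn1a, the CDK inhibitor p21 and a target of p53 (chromosome 17, 29090976 to 29100727, plus strand), was at 54.5 and 14.2 CPM without and with doxycycline in line 4 and at 39.9 and 16.5 CPM in line 5. It fell by 1.60 (SE 0.18, edgeR adjusted p = 0.0225). No library with the drug reached the level of either without it, which held for 29.3% of all genes tested. Trp53inp1, a stress protein induced by p53, fell by 0.68 and the tetraspanin Cd82 by 0.62 (edgeR adjusted p = 0.0405 and 0.0464), and the call of Cd82 ended with the offsets (-0.49). These were the 3 of 25 tested p53 target genes that passed, and of all genes 1.84% fell. The list's median was 0.03, or -0.11 with the offsets, with 8 members above 0 and 10 below 0 in both lines. Mdm2, the ubiquitin ligase that p53 induces and that degrades it, was at 107 and 100.1 CPM in line 4 and at 108 and 132 CPM in line 5 (edgeR adjusted p = 0.65), a gene chosen after its values were seen. In line 3 Cdkn1a had 46.8 CPM without and 41.7 CPM with doxycycline.

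Promoters of the proliferation genes that rose were searched for 2 motifs of cell cycle genes, on both strands of the 200 bases before the RefSeq start (RefSeq, GRCm38.p6, the mm10 build), and the motifs were chosen after the called genes were known. Of the 9 genes 7 had a window. The cell cycle homology region, TTTGAA, was in 2 of these 7, Cdk1 and Mki67, and in 7.72% of the 10546 windows of tested genes. An E2F site, written TTTCCCGC, TTTCGCGC, TTTGCCGC or TTTGGCGC, was in 1 of the 7, Cdk1, and in 2.87% of the 10546. A match describes the letters of a window and shows no binding. The Mki67 window (mm10 chr7:135716380-135716579, minus strand, 5′ to 3′) is printed because Mki67 had the smallest p of the genes with a match in a window free of the gene's own exons, with both copies of TTTGAA in capitals.
Mki67: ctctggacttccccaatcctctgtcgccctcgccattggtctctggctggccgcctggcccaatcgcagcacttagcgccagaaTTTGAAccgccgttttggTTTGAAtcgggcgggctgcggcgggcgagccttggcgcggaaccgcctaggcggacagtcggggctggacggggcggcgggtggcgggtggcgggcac

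Glycolytic genes and genes induced by low oxygen were lower in both lines. Of 19 tested genes of glycolysis 5 fell and 14 did not pass, with a median of -0.43 and 18 of 19 below 0 in both lines. Of 18 tested genes of the hypoxia response 5 fell and 13 did not pass, with a median of -0.53 and all 18 below 0 in both lines. Of all genes tested 1.84% fell, and 35.6% were below 0 in both lines. Gapdh, an enzyme of the middle of glycolysis (chromosome 6, 125161715 to 125166467, minus strand), was at 3499.8 and 2125 CPM without and with doxycycline in line 4 and at 3261 and 1969 CPM in line 5. Its lines gave log2 ratios of -0.72 and -0.73, and it fell by 0.72 (SE 0.09, edgeR adjusted p = 0.028). The glucose transporter Slc2a1 went from 258 to 139.6 CPM in line 4 and from 206 to 133 CPM in line 5 and fell by 0.75 (SE 0.11, edgeR adjusted p = 0.0351). Gpi1, which turns glucose-6-phosphate into fructose-6-phosphate, Aldoa, the aldolase of muscle type, and Slc16a3, the lactate exporter MCT4, fell by 0.69, 0.55 and 0.67 (edgeR adjusted p = 0.0318, 0.0457 and 0.0447), and 11.5% of the exonic bases of Gpi1 are shared with another annotated gene. Pgk1 and Ldha, later enzymes of the pathway, were also lower with the drug in both lines but did not pass, at -0.50 and -0.32 on the log2 scale (edgeR adjusted p = 0.0601 and 0.153).

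P4ha2, a collagen prolyl hydroxylase subunit, was at 67.0 and 23.2 CPM without and with doxycycline in line 4 and at 57.6 and 29.6 CPM in line 5, and fell by 1.24 (SE 0.16, edgeR adjusted p = 0.028). Ndrg1, a gene widely used as a marker of hypoxia, was at 169 and 85.5 CPM in line 4 and at 132 and 77.4 CPM in line 5, and fell by 0.87 (SE 0.11, edgeR adjusted p = 0.028). Ero1l, an oxidase of disulfide formation in the endoplasmic reticulum, Ankrd37 and the vasodilator peptide adrenomedullin (Adm) fell, with log2 fold changes of -0.84, -0.72 and -1.52 in that order (edgeR adjusted p = 0.032, 0.0495 and 0.0387). Vegfa, the vascular growth factor, had a log2 fold change of -0.42 and did not pass (edgeR adjusted p = 0.0991). In line 3 the glycolysis list had a median of 0.18, with 14 of 19 members above 0, and the hypoxia list -0.06. With total counts in place of TMM scaling these medians in line 3 were 0.06 and -0.18. Gapdh had 2767 CPM without and 3328 CPM with doxycycline in line 3, and its difference from lines 4 and 5 was 0.99 (SE 0.16, unadjusted p = 0.000349, edgeR adjusted p = 0.116).

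The core of the hypoxia response element, ACGTG, was searched in the same way in the 10 genes of these lists that fell. It was in 4 of the 8 with a window, Ankrd37, P4ha2, Slc16a3 and Slc2a1, and in 18.3% of the 10546 windows of tested genes. The P4ha2 window (mm10 chr11:54100724-54100923, plus strand, 5′ to 3′) is printed by the same choice as that of Mki67, with the core in capitals. It lies before a RefSeq start that is inside the GENCODE gene, which begins at 54100095.
P4ha2: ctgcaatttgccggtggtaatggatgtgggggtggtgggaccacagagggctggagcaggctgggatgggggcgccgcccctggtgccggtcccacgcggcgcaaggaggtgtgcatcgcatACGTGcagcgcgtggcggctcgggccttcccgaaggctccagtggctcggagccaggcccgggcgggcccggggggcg

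Genes of cytosolic ribosomal proteins were lower in both lines as a body. Of 57 tested, 8 fell, beside 1.84% of all genes, and 49 did not pass. The median was -0.33, and 56 of 57 were below 0 in both lines, beside 35.6% of all genes. Their summed share of the counts in genes went from 10.6% to 8.87% in line 4 and from 11.2% to 9.30% in line 5. Rpl28, of the large subunit (chromosome 7, 4792874 to 4795066, plus strand), was at 885 and 446 CPM without and with doxycycline in line 4 and at 899 and 553 CPM in line 5. It fell by 0.84 (SE 0.11, edgeR adjusted p = 0.028), and 9.9% of its exonic bases are shared with Ube2s. Rpl13, also of the large subunit, was at 1458 and 946 CPM in line 4 and at 1505 and 954 CPM in line 5, and fell by 0.63 (SE 0.09, edgeR adjusted p = 0.0351). Rpl23 of the large subunit fell by 0.61, and Rps4x, Rps15 and Rps10 of the small subunit by 0.55, 0.53 and 0.51 (edgeR adjusted p = 0.0387 to 0.0489). Rpl10a fell by 0.56 (edgeR adjusted p = 0.0462). Rps27l, a copy-like gene of Rps27 known as a p53 target, was the 1 member above 0 in both lines, at 0.47, and did not pass (edgeR adjusted p = 0.0585). Ribosomal protein genes have many processed copies in the genome, and reads that align to more than 1 place are counted for no gene.

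In the line 3 pair the same 57 genes lay the other way. There 55 of the 57 were above 0, with a median of 0.48, and their share of the counts in genes went from 11.2% to 13.6%. The 2 exceptions were Rpl30, at 1081 and 1063 CPM, and Rplp1, a stalk protein of the large subunit, at 1878 CPM without and 635 CPM with the drug. In lines 4 and 5 Rplp1 was at 2006 and 1473 CPM and at 2106 and 1798 CPM. The test of line 3 against lines 4 and 5 had an unadjusted p under 0.05 for 55 of the 57 genes, 54 of them higher in line 3 and Rplp1 lower, beside 17.0% of all genes. None passed after adjustment over all genes with edgeR as used throughout or with limma-voom, while DESeq2 called 19 higher and 1 lower of the 58 in its fit. With no filter on low counts edgeR called 53 higher and 1 lower of 58, in a fit that called 861 of all genes against 0. Rpl28 differed by 1.35 (SE 0.19, unadjusted p = 0.000142) and Rplp1 by -1.23 (SE 0.18, unadjusted p = 0.000161), both with an edgeR adjusted p of 0.116. With total counts in place of TMM scaling the medians were -0.23, -0.23 and 0.36 in lines 4, 5 and 3. The share of reads aligned to more than 1 place also moved differently, from 33.1% to 31.4% in line 4, from 34.4% to 33.2% in line 5 and from 34.6% to 37.8% in line 3, and its part in these differences was not tested.

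**Figure D3:**
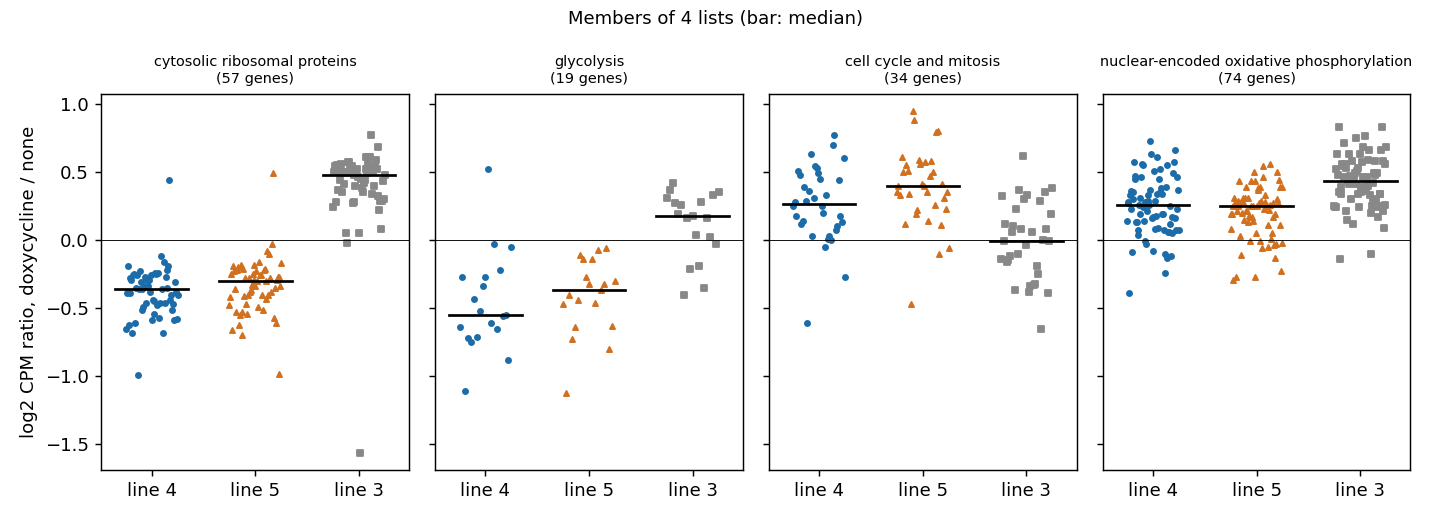
Log2 CPM ratio (doxycycline over none) of every tested member of 4 gene lists in lines 4, 5 and 3, 1 point per gene in alphabetical order within a line, with a bar at the median. Cytosolic ribosomal proteins have medians of -0.36, -0.30 and 0.48 in lines 4, 5 and 3, and the lowest point of line 3 is Rplp1, at -1.56.

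Of 37 tested genes of ribosome biogenesis and the nucleolus, the compartment of nucleophosmin itself, 1 rose, beside 1.10% of all genes, and 36 did not pass. The median was 0.11. The gene that rose was Nop10, a protein of the particles that guide pseudouridylation of RNA, at 150.3 and 247 CPM without and with doxycycline in line 4 and at 161 and 246 CPM in line 5, and it rose by 0.67 (SE 0.10, edgeR adjusted p = 0.0387). Nucleolin (Ncl) was at 538 and 529 CPM in line 4 and at 524 and 516 CPM in line 5, with an edgeR adjusted p of 0.929, and it was named after its values were seen. Beyond the ribosomal proteins, the elongation factor Eef2 fell by 1.03 (SE 0.14, edgeR adjusted p = 0.028) and the poly(A) binding protein Pabpc1 by 0.79 (SE 0.10, edgeR adjusted p = 0.0262). Eef2 went from 2187 to 889 CPM in line 4 and from 1909 to 1121 CPM in line 5. These 2 genes were also chosen after their values were seen.

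Nuclear-encoded genes of oxidative phosphorylation lay above 0, with a median of 0.24 over 74 genes, 0.25 in each line, and 56 of 74 were above 0 in both lines, beside 34.5% of all genes. Of the 74 genes 2 rose and 72 did not pass, and of all genes 1.10% rose, the share to set beside the next 2 lists as well. Ndufa4, a small subunit of the respiratory chain, rose by 0.62 and Ndufs6, of complex I, by 0.56 (edgeR adjusted p = 0.045 and 0.0496). Of 44 mitochondrial ribosomal protein genes Mrpl13 and Mrpl20 rose, by 0.67 and 0.60 (edgeR adjusted p = 0.0375 and 0.0455), with a list median of 0.17. Of 8 tested mitochondrially encoded genes mt-Nd2, a complex I subunit, rose by 0.57 (edgeR adjusted p = 0.0451). The offsets for length and GC content ended the calls of Ndufa4 (0.28), Ndufs6 (0.42), Mrpl20 (0.44) and mt-Nd2 (0.12), and moved the median of the mitochondrially encoded genes from 0.29 to -0.11. Without the line as a block mt-Nd2 did not pass. In line 3 the oxidative phosphorylation list had a median of 0.43.

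Immediate early genes, which are switched on within minutes of a growth signal, gave 7 members that fell and 18 that did not pass of 25 tested, beside 1.84% of all genes that fell, with a median of -0.61. The list medians were -0.79 in line 4 and -0.37 in line 5. In both lines 19 members were below 0 and 1 above, beside 35.6% and 34.5% of all genes, and 2 had a log2 fold change above 0. Klf4, a transcription factor of epithelial differentiation, was at 63.5 and 26.4 CPM without and with doxycycline in line 4 and at 56.0 and 23.9 CPM in line 5, and fell by 1.24 (SE 0.12, edgeR adjusted p = 0.0163). Its relative Klf2 was at 9.29 and 1.95 CPM in line 4 and at 7.79 and 1.65 CPM in line 5, and fell by 2.24 (SE 0.24, edgeR adjusted p = 0.0195). Fosb and Jund, parts of the AP-1 factor, fell by 2.25 and 1.13, Ier3 by 0.85 and Btg1, an antiproliferative protein, by 0.63 (edgeR adjusted p = 0.028, 0.0448, 0.0429 and 0.0469). Nr4a3, the remaining member, was under 1 CPM in all 4 libraries. Against the same 1.84%, of 21 genes of RAS and ERK output 1 fell and of 20 genes of NF-kappaB feedback and cytokines 2. In the former Hmga1, an architectural chromatin protein, fell, from 436 to 162 CPM in line 4 and from 404 to 194 CPM in line 5 with a change of -1.23 in log2 units (SE 0.12, edgeR adjusted p = 0.0181). In the latter these were Tnfaip2, at 264 and 104 CPM in line 4 and 252 and 123 CPM in line 5, and Tnfaip3, the feedback inhibitor A20, at 47.3 and 13.7 CPM and at 36.7 and 21.1 CPM. Their log2 fold changes were -1.18 and -1.28 (edgeR adjusted p = 0.0181 and 0.0464).

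Of 24 NRF2 and antioxidant genes 2 fell, the factor Nfe2l3 described above and heme oxygenase 1 (Hmox1), 22 did not pass, 1.84% of all genes fell, and the median was -0.22. Hmox1 was at 39.6 and 13.4 CPM without and with doxycycline in line 4 and at 41.8 and 23.01 CPM in line 5, and fell by 1.20 (SE 0.19, edgeR adjusted p = 0.0387). In line 3 it was at 37.9 CPM without and 73.3 CPM with the drug. Mt2, a metallothionein that binds zinc and copper, was at 170.4 and 47.1 CPM in line 4, at 150.4 and 64.0 CPM in line 5 and at 110.3 and 139 CPM in line 3. It fell by 1.54 in lines 4 and 5 (SE 0.16, edgeR adjusted p = 0.0195), and 73.5% of its exonic bases are shared with Gm45774, so their reads cannot be told apart. Mt1, its neighbour, fell by 1.27 (SE 0.12, edgeR adjusted p = 0.0163), and was named after its values were seen.

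Lines 4 and 5 themselves parted in the genes of ATF4 and amino acid stress, with medians of -0.59 in line 4 and 0.02 in line 5 over 28 genes. No member passed with edgeR, 8 were lower and 0 higher at an unadjusted p under 0.05, where 13.4% of all genes were lower and 12.3% higher, and DESeq2 called 2 lower. Ddit3, the stress factor CHOP, was at 51.6 and 16.1 CPM without and with doxycycline in line 4 and at 59.9 and 51.4 CPM in line 5. Asns, asparagine synthetase, was at 185 and 119 CPM in line 4 and at 205 and 252 CPM in line 5, so the lines went opposite ways. These 2 genes were chosen after their values were seen. In line 3 the median was 0.46, and 26 of the 28 members were above 0. For the difference between line 3 and lines 4 and 5, 17 of the 28 had an unadjusted edgeR p under 0.05, all higher in line 3. Over all genes this share was 17.0%. None passed after adjustment with edgeR, limma-voom or DESeq2, while edgeR with no filter on low counts called 16 higher.

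Genes of epithelial structure and of the matrix that passed had fallen, and of all genes 1.84% fell. Of 28 epithelial genes the tight junction protein Cldn3 fell (change of -1.17 on the log2 scale, SE 0.19, edgeR adjusted p = 0.0425), and the list medians were -0.50 in line 4 and -0.08 in line 5. Of 18 hemidesmosome and squamous genes 3 fell: Aqp3, the integrin Itgb4 and the laminin chain Lamb3, which anchor epithelial cells to the basement membrane. Itgb4 was at 69.4 and 24.4 CPM without and with doxycycline in line 4 and at 54.8 and 31.4 CPM in line 5, and fell by 1.15 (SE 0.18, edgeR adjusted p = 0.0387). Lamb3 was at 99.0 and 41.95 CPM in line 4 and at 88.5 and 57.7 CPM in line 5, and fell by 0.92 (SE 0.17, edgeR adjusted p = 0.0463). Both had the lower level with the drug in line 4. Of 27 mesenchymal and matrix genes 5 fell, with a median of -0.49. Vimentin (Vim), the intermediate filament of mesenchymal cells, was at 2285 and 1205 CPM in line 4 and at 1996 and 1114 CPM in line 5, and fell by 0.88 (SE 0.09, edgeR adjusted p = 0.0195). Col6a1, Sparc and Tgfb1 fell by 1.67, 0.69 and 0.82 (edgeR adjusted p = 0.0336, 0.0405 and 0.045). They encode a collagen VI chain, a matrix glycoprotein and the growth factor TGF-beta 1.

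Of 17 tested MHC class I presentation genes, which show peptides to T cells, 4 fell, all heavy chain genes, beside 1.84% of all genes, 13 did not pass, and the median was -0.65, or -0.18 over the 10 members with a mean of at least 5 CPM. H2-K1 was at 124 and 66.7 CPM without and with doxycycline in line 4 and at 116 and 52.9 CPM in line 5, and fell by 1.01 (SE 0.12, edgeR adjusted p = 0.0245). H2-D1 was at 226 and 136 CPM in line 4 and at 222 and 148 CPM in line 5, and fell by 0.65 (SE 0.11, edgeR adjusted p = 0.0405). H2-Q6 had 70 counts over both libraries without and 2 over both with the drug, a ratio of 38.3 (95% exact counting interval 10.2 to 322), and H2-Q4 fell by 2.15 (edgeR adjusted p = 0.0411). Class I genes resemble each other and can share reads. B2m, the light chain of class I molecules, was at 69.0 and 62.0 CPM in line 4 and at 65.3 and 38.7 CPM in line 5 and did not pass (edgeR adjusted p = 0.163). It was named after its values were seen. Of 27 interferon response genes 0 passed with edgeR or DESeq2, with 2 higher and 3 lower at an unadjusted p under 0.05, beside 12.3% higher and 13.4% lower of all genes.

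Most T and NK lymphocyte genes fell, and few B lymphocyte genes. Of 37 tested T and NK genes 24 fell, beside 1.84% of all genes, 13 did not pass, and 7 had no count in one group. Of 8 tested B lymphocyte genes the 2 immunoglobulin genes Ighm and Igkc fell and 6 did not pass. The summed level of the T and NK genes went from 131 to 46.2 CPM in line 4, from 103 to 48.8 CPM in line 5 and from 125 to 51.2 CPM in line 3. That of the B lymphocyte genes went from 13.7 to 4.49 CPM, from 6.87 to 2.49 CPM and from 9.13 to 2.93 CPM in the same order. Thy1, a surface protein of T cells that also stood in the fibroblast list, had 136 counts over both libraries without and 2 over both with the drug, a ratio of 74.4 (95% exact counting interval 20.2 to 620.4), and the immunoglobulin light chain gene Igkc 76 and 2, a ratio of 41.6 (11.1 to 349). The chemokine Ccl5 was at 4.90 and 0.0991 CPM in line 4 and at 3.72 and 0.115 CPM in line 5 and fell by 5.28 (SE 0.44, edgeR adjusted p = 0.0154). The lymphocyte sums moved in the same direction as the MHC class I genes, and their part in that result was not tested. In bulk RNA fewer cells of a type and less RNA per cell cannot be told apart. Intervals of ratios cover counting error only.

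Of the 12 largest rises among called genes with a mean of at least 5 CPM, 10 were of the macrophage list, and the others were Stab1 and Gkn2. Of 41 tested macrophage and phagocyte genes 25 rose and 1 fell, beside 1.10% and 1.84% of all genes. The median log2 fold change was 3.46, beside 0.00 for all genes, and 1.84 over the 19 with a mean of at least 5 CPM. Gpnmb, a glycoprotein of phagocytes, had 3 counts over both libraries without and 3853 over both with doxycycline, a ratio of 1174 (95% exact counting interval 401.5 to 5697), and was at 98.2 CPM in line 4 and 33.6 CPM in line 5 with the drug. Mmp12, the macrophage elastase, had 1 and 1257 counts, a ratio of 1149 (206 to 45429), and Adgre1, the macrophage marker F4/80, had 1 and 651, a ratio of 595 (106 to 23545). Lyz2, myeloid lysozyme, was at 5.92 and 146 CPM in line 4 and at 8.79 and 60.0 CPM in line 5, and rose by 3.68 (SE 0.42, edgeR adjusted p = 0.0231). Stab1, a scavenger receptor of macrophages and sinusoidal endothelium that was in none of the lists, was at 0.470 and 13.9 CPM in line 4 and at 0.269 and 7.24 CPM in line 5, and rose by 4.82 (SE 0.29, edgeR adjusted p = 0.00598). For each of these genes the level with the drug was higher in line 4 than in line 5, and line 3 lay between them, at 55.9 CPM for Gpnmb, 91.4 CPM for Lyz2 and 7.42 CPM for Stab1. Sirpa, Ctss, Cd36, Mpeg1, Lpl and Apoe, genes of phagocyte signalling, proteolysis and lipid handling, rose by 6.67, 5.11, 4.94, 4.68, 4.61 and 1.82 (edgeR adjusted p = 0.00598 to 0.0463).

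Not every phagocyte gene rose. Summed over the 41 genes the level was 2056 CPM without and 1902 CPM with the drug in line 4 and 2083 and 1661 CPM in line 5. In that sum Lgals3 (galectin 3), which epithelial cells also express, went from 1161 to 728 CPM in line 4 and from 1216 to 721 CPM in line 5 and fell by 0.71 (SE 0.10, edgeR adjusted p = 0.028). Cd68, a lysosomal protein used as a macrophage marker, was at 10.5 and 10.1 CPM in line 4 and at 10.9 and 9.11 CPM in line 5. Gkn2, a secreted gastrokine of stomach epithelium and no macrophage gene, was also among these 12 largest rises. It was at 7.88 and 27.5 CPM in line 4, at 9.64 and 33.8 CPM in line 5 and at 5.93 and 11.9 CPM in line 3, and rose by 1.81 (SE 0.14, edgeR adjusted p = 0.0128). When the genes of the macrophage, T and NK and B lymphocyte lists were left out before the fit, 172 genes rose and 286 fell, and all 381 of the called genes still tested passed again.

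The remaining lists held few calls. Of 28 genes of ER folding and heat shock and of 24 of cholesterol synthesis 0 passed with edgeR, with 1 higher and 7 lower and 1 higher and 2 lower at an unadjusted p under 0.05, and DESeq2 called 0 and 1 of them. Of 8 endothelial and 10 alveolar and airway genes 0 passed with edgeR, 1 and 2 were lower at an unadjusted p under 0.05, and DESeq2 called 1 in each. Over all genes these unadjusted shares were 12.3% higher and 13.4% lower. Of 17 replication-dependent histone genes 1 rose, beside 1.10% of all genes. It was Hist1h4c, which went from 0.0392 to 0.793 CPM in line 4 and from 0.115 to 0.957 CPM in line 5 (edgeR adjusted p = 0.0463). Histone mRNAs of this kind mostly lack a poly(A) tail, and levels near 1 CPM rest on few reads.

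Set beside the single pair of line 3, the genes called in lines 4 and 5 lay mostly on the same side there with smaller ratios. Of the 162 that rose, 141 (87%) were above 0 in line 3, with a median of 0.56, and of the 271 that fell, 201 (74.2%) were below 0, with a median of -0.37, where 49.8% of all genes were above and 50.2% below. Among called genes with at least 5 CPM these shares were 80.2% and 66.5%. The genes were chosen on lines 4 and 5, a choice that by itself favours larger ratios there than in another line. Across all tested genes the ratios of line 3 correlated with those of line 4 at r = 0.346 and with those of line 5 at r = 0.290, against 0.617 between lines 4 and 5, and genes are not independent.

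**Figure D4:**
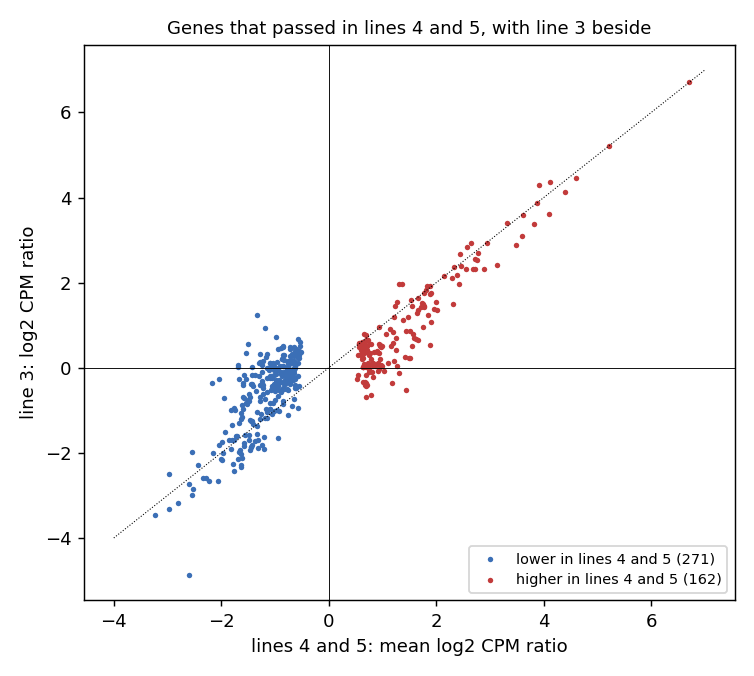
Genes called in lines 4 and 5, with the mean of their log2 CPM ratios in these lines (horizontal) against the ratio in the single line 3 pair (vertical), 1 point per gene and a dotted line of equal response. Of the 162 genes that rose 141 lie above 0 in line 3, and of the 271 that fell 70 lie above 0.

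Whether the response of line 3 differed from that of lines 4 and 5 was tested with all 6 libraries, against the spread between lines 4 and 5. The single pair of line 3 is fitted exactly, so its own spread was not estimated. With edgeR 0 of 14531 genes passed, the smallest adjusted p was 0.116, and 2466 genes (17.0%) had an unadjusted p under 0.05. With limma-voom 0 passed, with DESeq2 49, of which 46 were higher and 3 lower in line 3, and with edgeR and no filter on low counts 861. Aqp1 was among the genes of smallest p, with a difference of 1.74 (SE 0.21, unadjusted p = 4.56e-05), and its level in line 3 was 51.1 CPM without and 51.7 CPM with doxycycline. Hpse, heparanase, which cleaves heparan sulfate, was at 8.23 and 2.71 CPM in line 4, at 7.56 and 2.91 CPM in line 5 and at 4.89 and 12.3 CPM in line 3. It fell by 1.48 in lines 4 and 5 (SE 0.23, edgeR adjusted p = 0.0381), and line 3 differed by 2.82 (SE 0.38, unadjusted p = 8.73e-05). Hcfc1r1, a regulator of the cell cycle factor HCF-1, went from 35.1 to 16.9 CPM in line 4 and from 39.4 to 20.3 CPM in line 5 (edgeR adjusted p = 0.0268), and from 33.6 to 55.7 CPM in line 3, and it shares 30% of its exonic sequence with Thoc6. Hmox1 and Mt2 differed by 2.16 and 1.88 (unadjusted p = 0.000132 and 0.000167).

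In the other direction, besides Rplp1, Mki67 and Npm1 itself, for which line 3 was set apart, stood Tet2, Zfc3h1 and Apol7a. Tet2, an enzyme that oxidises methylcytosine, was at 19.2 and 27.0 CPM in line 4, at 16.2 and 21.9 CPM in line 5 and at 25.5 and 11.1 CPM in line 3. It did not pass in lines 4 and 5 (edgeR adjusted p = 0.0979), and line 3 differed by -1.67 (SE 0.25, unadjusted p = 0.000194). Zfc3h1, which takes part in nuclear RNA decay, and Apol7a differed by -1.51 and -2.69 (unadjusted p = 0.000209 and 0.000185). All of these differences had an edgeR adjusted p of 0.116.

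**Figure D5:**
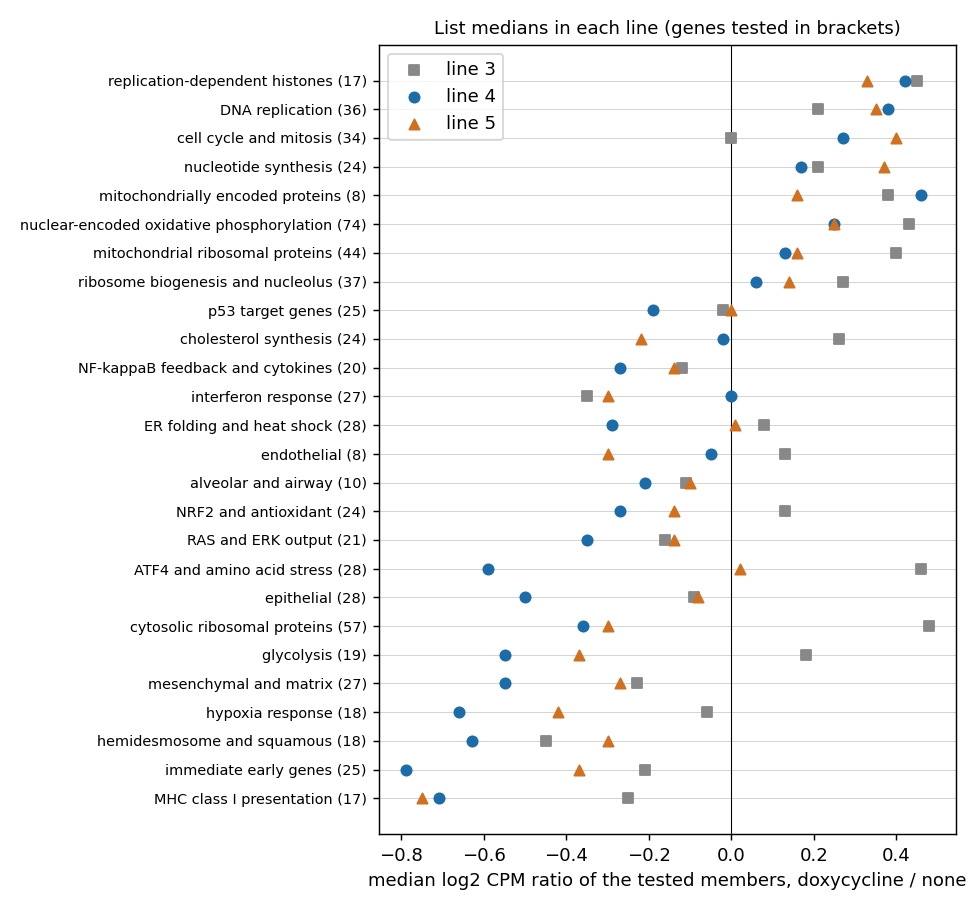
Median log2 CPM ratio (doxycycline over none) of the tested members of 26 gene lists in lines 4, 5 and 3, 1 point per line, with the number of genes tested in brackets; lists of macrophage and lymphocyte genes and lists with under 5 tested genes are not drawn. Lines 4 and 5 lie below 0 and line 3 above 0 for cytosolic ribosomal proteins (-0.36, -0.30 and 0.48) and for glycolysis (-0.55, -0.37 and 0.18).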

How the data were processed

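RNA sequencing counts of lines 4 and 5, 1 library per line and condition, were analysed, with line 3 beside them. Each gene has a whole-number count of reads, as deposited by the authors and not normalized. The submitters' processing notes name STAR, HTSeq, CASAVA, Picard, bedtools, DESeq2 and R 3.3.0, and the mm10 build. The annotation release and strand setting do not appear in the sources used here, and genes that overlap on opposite strands cannot be told apart. The 5 entries that name no gene, with 43.7% to 47.7% of reads, were left out.

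The main test was the quasi-likelihood F test of edgeR 4.0.16 in R 4.3.3, with line and doxycycline as terms, after filterByExpr and TMM scaling, with Benjamini-Hochberg adjustment. This left 1 residual degree of freedom, moderated over genes, and the biological coefficient of variation was 13.0%. Line 3 was compared by a term for line 3 and doxycycline in all 6 libraries. CPM used TMM sizes over the 6 libraries, and ratios within a line had 0.5 CPM added. SE is the log2 fold change over the square root of F. The tests were checked on simulated data. Since p-values measure only the spread between 2 lines, which may be technical in part, they do not show how repeated cultures would differ. Libraries of one line pair because they come from the same stable line, and their deviations from the group means correlated at r = 0.117. Libraries of a group were not duplicates, with a chi-square per degree of freedom of 7.82 without and 35.5 with doxycycline.

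Named genes were Npm1, the 12 largest rises and 12 largest falls among called genes with at least 5 CPM, 6 genes each way for line 3, and up to 3 called members of each of 31 lists, or 2 of smallest p as values. Some genes that this rule names are not reported here. All other genes named were chosen after their values were seen. Members and lists were chosen with earlier results of these data known. Symbols matched 48058 of 48526 identifiers in GENCODE. Alternatives were RLE and total-count scaling, other filters and thresholds, DESeq2 1.42.0, limma-voom (limma 3.58.1), no block, all 3 lines, each library left out, offsets for length and GC content, and immune lists left out. The last 2 and total-count scaling were chosen after seeing the data.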

Additional observations from a re-analysis of the deposited data

Results flagged for a closer look

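Among lists with at least 5 tested genes and a call in lines 4 and 5, 3 had a median log2 ratio in the line 3 pair on the other side of 0 from those of lines 4 and 5. The cytosolic ribosomal proteins had a median of 0.48 in line 3 against -0.36 and -0.30 in lines 4 and 5, over 57 genes. Glycolysis had 0.18 against -0.55 and -0.37, over 19 genes, and with total counts 0.06 against -0.42 and -0.30. The NRF2 and antioxidant list had 0.13 against -0.27 and -0.14, over 24 genes, and with total counts in place of TMM scaling it had 0.02 against -0.14 and -0.06. Line 3 gave 1 pair, and the difference of the list medians was not tested. Gene by gene, 55, 12 and 10 members of the 3 lists had an unadjusted p under 0.05 for the difference, beside 17.0% of all genes. None passed with edgeR after the filter on low counts, and with no filter edgeR called 53 higher and 1 lower in line 3 of 58 ribosomal protein genes, 9 higher of 19 in glycolysis and 3 higher of 24 in the NRF2 list. Outside that criterion, cholesterol synthesis (0.26 in line 3 against -0.02 and -0.22), the endothelial list (0.13 against -0.05 and -0.30) and the fibroblast list of 4 genes (0.03 against -0.96 and -0.84) also lay on opposite sides. With total counts none of these did. The medians were then 0.15 against 0.11 and -0.15, 0.08 against 0.08 and -0.25, and -0.05 against -0.85 and -0.78, in the same order.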

How the results depend on the processing

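The calls in lines 4 and 5 depended on the filter, the scaling and single libraries, and the cause was not tested. Against 162 higher and 271 lower, RLE scaling gave 427 and 605, no filter on low counts 950 and 1553, a mean of at least 5 CPM 7 and 2, all 6 libraries with a term for line 3 360 and 590, all 3 lines 103 and 140, the offsets with the replicate block 318 and 534, and an adjusted p under 0.01 8 and 2. Total-count scaling gave 562 higher and 319 lower. Without the replicate block 265 were higher and 399 lower, and the block changed the call of 1 of the 74 called named genes, mt-Nd2 (adjusted p = 0.115 without it). DESeq2 gave 209 and 379, limma-voom 198 and 312, and the fit without immune lists 172 and 286. Leaving out 1 library, without the block and with the lone library assumed to vary like the other group, gave 7 to 2208 higher and 5 to 2571 lower: 7 and 5 without line 4 untreated, 11 and 16 without line 5 untreated, 1823 and 2082 without line 4 treated. Of the 433 calls, 433 were kept with RLE scaling, 371 with DESeq2, 433 with limma-voom, 402 without the block, 373 with the offsets and 192 of 428 with all 3 lines. The line 3 difference had 49 calls with DESeq2 and 861 with no filter, against 0. P-values of the fit with no filter are on another scale. Its edgeR adjusted p of Npm1 in lines 4 and 5 was 4.17e-129 against 0.00598, at log2 fold changes of -2.61 and -2.59. Leaving out a replicate leaves it no residual degree of freedom with the replicate block, and a fit without the block was not run for it. Npm1 stayed between -3.32 and -2.24. Genes at 0 to 3 counts in a group are limited by depth.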
